A study of Homo sapiens with 22 samples.

Results

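The genes described here are 35 aminoacyl-tRNA synthetases, of 20411 protein-coding genes listed in each of 2 expression tables. They were taken by gene symbol, with no threshold on measured values: 19 encode cytosolic enzymes and 16, with symbols ending in 2, encode mitochondrial enzymes. RNA-seq was performed in 2 human acute myeloid leukemia (AML) cell lines, MOLM-13 and NB4, both wild type, after 48 hours with 2 μM FP54 or with the solvent dimethyl sulfoxide (DMSO). FP54 is a proteolysis-targeting chimera: it ties a ligand of FTO, the enzyme that erases N6-methyladenosine (m6A) from RNA, to a ligand of the E3 ligase component VHL, so that FTO protein is degraded. Each of the 4 groups (MOLM-13 DMSO, MOLM-13 FP54, NB4 DMSO and NB4 FP54) had 3 libraries. FTO protein cannot be read from these mRNA data, and each line is a single model of AML: MOLM-13 carries a KMT2A fusion and an internal tandem duplication of FLT3, and NB4 is a promyelocytic leukemia line with a PML-RARA fusion.

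Aminoacyl-tRNA synthetases join each amino acid to its tRNA, and the charged tRNAs are what ribosomes read. In the cytosol, several synthetases sit with the scaffold proteins AIMP1, AIMP2 and EEF1E1 in the multi-synthetase complex, while mitochondria use a mostly separate, nuclear-encoded set to translate the few proteins of the respiratory chain encoded in mitochondrial DNA. When amino acids run short, uncharged tRNA activates the kinase GCN2 (EIF2AK4), eIF2 is phosphorylated, and translation of the transcription factor ATF4 rises. Genes of cytosolic synthetases are known ATF4 targets, together with genes of amino acid synthesis and uptake.

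The labels of the 2 lines were checked against marker genes. FLT3 was at 74.0 ± 16.3 RPKM (reads per kilobase of exon, scaled to the mapped reads of the library, mean ± SD, n = 3) in MOLM-13 DMSO cells and at 5.67 ± 0.477 in NB4 DMSO cells, and the homeobox genes HOXA9 (21.3 ± 2.14 against 0.234 ± 0.0799) and MEIS1 (6.36 ± 0.304 against 0.157 ± 0.0101) separated the lines in the same way. The granule gene MPO stood at 2170 ± 119 RPKM in NB4 and 16.1 ± 2.92 in MOLM-13 cells. The 4 genes listed as markers of promyelocytic NB4 cells went against that label, since each was higher in MOLM-13 than in NB4 DMSO cells: ELANE (186 ± 38.4 against 0.15 ± 0.0627 RPKM), AZU1 (174 ± 10.2 against 9.96 ± 1.54), CTSG (116 ± 22.2 against 58.5 ± 8.45) and RARA (13.7 ± 1.67 against 7.46 ± 1.47). Only the name of the second table says that it is from NB4 cells. Of the markers of other cell types, HBB, HBA1, CDH1 and DCN were listed at 0 in every DMSO library of both lines. Others were detected in NB4 DMSO cells, with EPCAM at 8.15 ± 0.389 RPKM (0.0158 ± 0.0274 in MOLM-13), KRT18 at 11.5 ± 0.814 (7.35 ± 1.04 in MOLM-13), KRT8 at 1.22 ± 0.294 (0.705 ± 0.104) and the T cell gene CD3D at 6.35 ± 0.528 (0.519 ± 0.0633).

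Reads on genes, recovered from the RPKM values, numbered 16308923 to 17357940 per library in MOLM-13 DMSO cells and 20655341 to 22342375 in NB4 DMSO cells. The FP54 libraries held 19202930, 5835173 and 12035753 reads in MOLM-13 cells, so replicate 2 was the shallowest of the 12, and 10599156 to 13075070 in NB4 cells. Replicate 2 of the MOLM-13 DMSO libraries gave the lowest value of its group for 15 of the 19 cytosolic and 13 of the 16 mitochondrial synthetases, and replicate 1 of the MOLM-13 FP54 libraries for 14 of the 19 cytosolic ones. Genes of olfactory receptors, which these cells should not use, averaged 0.0496 to 0.0549 RPKM in NB4 FP54 libraries against 0.00168 to 0.00372 in NB4 DMSO libraries, a background far under the level of any synthetase tested here, and subtracting it changed no count of synthetases called in either line.

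Because ATF4 acts on synthetase genes through the composite element bound by ATF4 with C/EBP proteins, promoter windows of 300 bases (250 before and 50 after the start, RefSeq, GRCh38.p14) were searched for TGATGNAA on both strands, which on the other strand reads TTNCATCA. Of the 35 genes, 30 had a window, and LARS1, VARS1, YARS1, AARS2 and VARS2 had none. The letters occurred in 8 of the 30, and in 558 of the 15270 genes of the tables with a window, or 3.65%. These 8 are shown as 30 bases each, 5′ to 3′ on the strand of the gene, with the matching letters in capitals.
AARS1, chr16:70289675-70289704, minus strand: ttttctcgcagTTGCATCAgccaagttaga
CARS1, chr11:3057407-3057436, minus strand: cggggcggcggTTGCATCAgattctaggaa
GARS1, chr7:30594834-30594863, plus strand: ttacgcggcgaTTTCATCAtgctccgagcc
IARS1, chr9:92293692-92293721, minus strand: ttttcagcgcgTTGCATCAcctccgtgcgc
MARS1, chr12:57488053-57488082, plus strand: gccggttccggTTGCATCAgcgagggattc
NARS1, chr18:57621804-57621833, minus strand: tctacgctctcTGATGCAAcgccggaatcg
TARS1, chr5:33440956-33440985, plus strand: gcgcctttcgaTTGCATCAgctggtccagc
YARS2, chr12:32756076-32756105, minus strand: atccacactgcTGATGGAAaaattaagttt
Of these 8, 7 are cytosolic genes, and 6 of these (all but GARS1) carry the same 8 letters, on one strand or the other. Counted from the RefSeq start of the window, the match began at base -187 in AARS1 and at -197 in YARS2. In the other 6 genes it began within 33 bases before or 15 bases after that start. These starts are not the ends of the GENCODE gene spans, and in the 7 cytosolic genes the match lies inside the span. CARS1, GARS1 and TARS1 have 2 windows each, and in GARS1 the match lies in the downstream one. A match of letters is a description of these windows and shows no binding.

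In untreated cells the cytosolic mRNAs were far more abundant than the mitochondrial ones. Summed over the 19 cytosolic genes, DMSO libraries held 733 ± 46.5 RPKM (SD, n = 3) in MOLM-13 and 811 ± 24.6 in NB4 cells, against 93.4 ± 10.7 and 147 ± 3.79 over the 16 mitochondrial genes. EPRS1, the joined glutamyl- and prolyl-tRNA synthetase, led in MOLM-13 cells with 109 ± 3.68 RPKM, and FARSA, the α subunit of phenylalanyl-tRNA synthetase, led in NB4 cells with 112 ± 14.9. IARS2, the mitochondrial isoleucyl enzyme, was the most abundant mitochondrial member in all 12 libraries, at 29.1 ± 3.02 RPKM in MOLM-13 and 44 ± 3.49 in NB4 DMSO cells. The order among genes depends on the lengths used: the values fit merged exon lengths that reach 22418 bases for IARS1 and 20639 for LARS1 against 2434 for FARSA, so that RPKM of the former, with long annotated isoforms, came out low.

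The first comparison asks what happened to these mRNAs in MOLM-13 cells. The study's cutoffs were kept, so a gene was called higher or lower when its p from limma was under 0.01 and its log2 fold change reached 0.5 or -0.5. All 19 cytosolic and 13 of the 16 mitochondrial genes passed the filter on low values, a mean of at least 1 RPKM, which MARS2, NARS2 and SARS2 did not. Among the cytosolic genes, 9 of 19 fell and none rose, while 9.04% of the 9710 genes tested fell and 9.3% rose. No cytosolic gene was on the higher side at an unadjusted p below 0.05 either, or by limma-voom on recovered reads. The median log2 fold change of the 19 was -0.46, against 0 for all genes tested, and 17 of the 19 values were negative. The summed cytosolic level was 733 ± 46.5 RPKM with DMSO and 550 ± 27.4 with FP54, with no overlap of the libraries. Read counts of whole cultures cannot tell a lower mRNA level in each cell from a change in the share of cells that carry it.

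**Figure D1:**
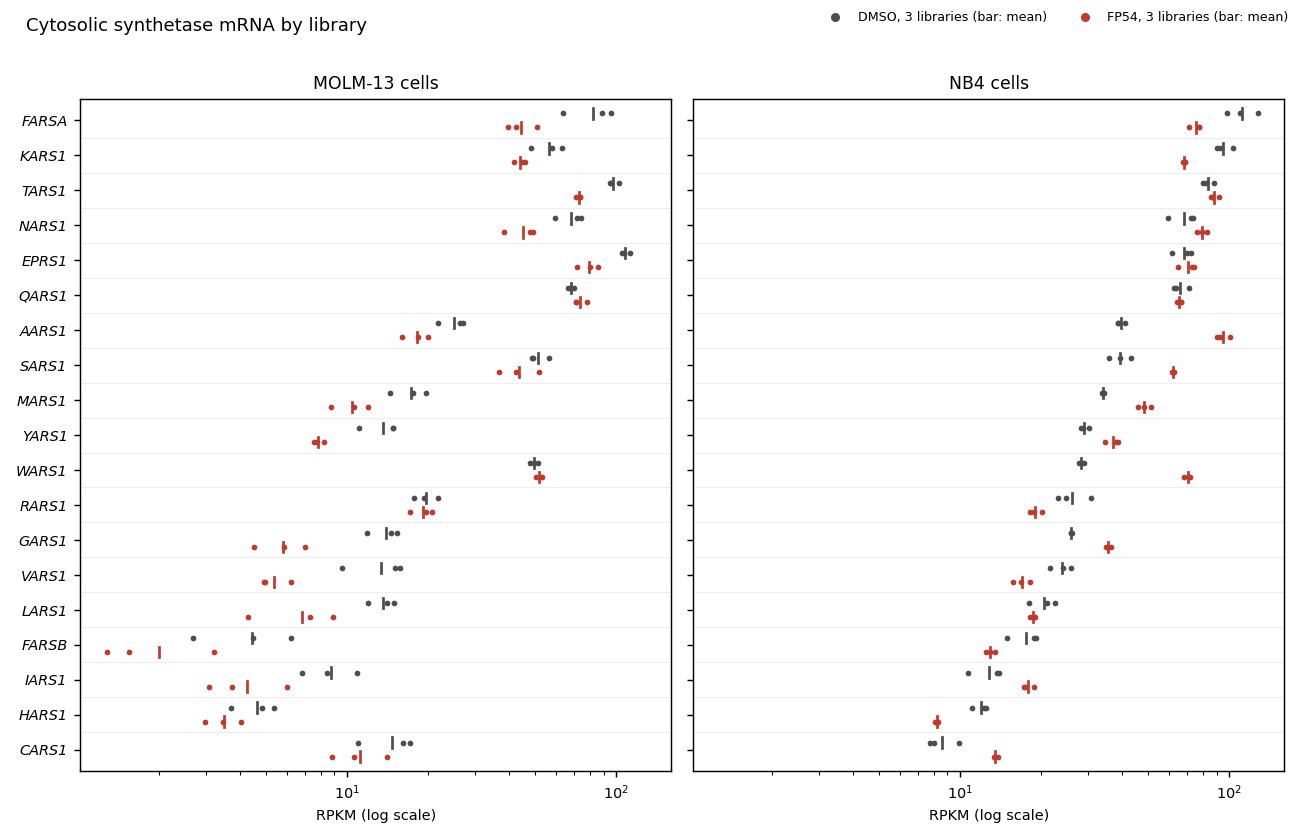
RPKM of the 19 cytosolic synthetases on a log axis, in MOLM-13 cells (left) and NB4 cells (right), with 1 point for each library and a bar at the mean of 3 libraries, for DMSO (grey) and FP54 (red). In MOLM-13 cells the FP54 points of GARS1 and VARS1 lie below all DMSO points, while in NB4 cells those of AARS1 and WARS1 lie above them.

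Within the multi-synthetase complex, 3 of 7 members fell in MOLM-13 cells. IARS1, the cytosolic isoleucyl-tRNA synthetase, stood at 10.96, 6.84 and 8.44 RPKM in the DMSO libraries and at 3.07, 3.74 and 6.0 in the FP54 libraries. LARS1, the leucyl enzyme that also acts as a leucine sensor of mTORC1, went from 14.9, 11.99 and 14.1 RPKM to 4.31, 7.33 and 8.89. In both, every FP54 library lay below every DMSO library, and FP54 replicate 3 was the highest of the treated ones. The log2 fold changes, all on the log2(RPKM + 0.1) scale, were -1.05 (SE 0.25, adjusted p = 0.0201, limma) for IARS1 and -1.05 (SE 0.24, adjusted p = 0.0165) for LARS1. MARS1, the methionyl enzyme that charges initiator tRNA as well, fell by 0.72 on the log2 scale (adjusted p = 0.0183), from 17.3 ± 2.63 to 10.4 ± 1.62 RPKM.

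The other 4 complex members were not called. EPRS1 measured 109 ± 3.68 RPKM with DMSO and 79.4 ± 7.18 with FP54, a log2 difference of -0.45 (adjusted p = 0.0366) that is under the minimum fold. KARS1, whose transcripts encode both the cytosolic and the mitochondrial lysyl enzyme, measured 56.4 ± 7.34 and 44.2 ± 2.17 RPKM. For QARS1, the glutaminyl enzyme, the means were 68.1 ± 1.84 and 73.4 ± 3.85, and for RARS1, the arginyl enzyme, 19.7 ± 2.03 and 19.2 ± 1.86. Their 95% intervals ran from -0.16 to 0.38 (QARS1) and from -0.35 to 0.28 (RARS1) on the log2 scale, which leaves out the fall seen for IARS1 and LARS1.

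Outside the complex, 6 of 12 cytosolic genes fell in MOLM-13 cells, and 3 of these are among the 5 largest decreases. VARS1, the valyl-tRNA synthetase, read 15.7, 9.57 and 15.1 RPKM with DMSO and 4.91, 4.96 and 6.22 with FP54. GARS1, whose transcripts encode both the cytosolic and the mitochondrial glycyl enzyme, read 14.6, 11.9 and 15.4 RPKM and then 4.52, 5.87 and 6.97. The treatments did not overlap for either gene, and the treated means were 39.7% and 41.4% of the DMSO means. VARS1 changed by -1.29 on the log2 scale (SE 0.21, adjusted p = 0.00454, limma) and GARS1 by -1.27 (SE 0.19, adjusted p = 0.00334).

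Phenylalanyl-tRNA synthetase is built from 2 kinds of subunit, and both of their mRNAs were called lower in MOLM-13 cells. FARSB, the β subunit, read 6.22, 2.69 and 4.48 RPKM with DMSO and 1.29, 1.55 and 3.21 with FP54. Here the treatments overlapped, since the DMSO replicate 2 value is under that of FP54 replicate 3, and the fold change of -1.14 (SE 0.36, adjusted p = 0.049) rested on as few as 61 reads, in FP54 replicate 2. FARSA, the α subunit, fell from 82.6 ± 16.9 to 44.4 ± 5.75 RPKM without overlap (log2 fold change -0.88, adjusted p = 0.0102). YARS1, the tyrosyl enzyme, fell by 0.78 (adjusted p = 0.0106) and NARS1, the asparaginyl enzyme, by 0.60 (adjusted p = 0.0246) on the log2 scale.

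The remaining 6 cytosolic genes were not called in MOLM-13 cells. TARS1, the threonyl enzyme, measured 98 ± 4.07 RPKM with DMSO and 72.7 ± 1.53 with FP54 (log2 difference -0.43, adjusted p = 0.0352, under the minimum fold). AARS1, the alanyl enzyme, measured 25.1 ± 2.81 and 18.2 ± 2.06 (-0.46, adjusted p = 0.0539). WARS1, the tryptophanyl enzyme that interferon induces, was at 49.6 ± 1.66 and 52.0 ± 1.51 RPKM, with an interval from -0.20 to 0.34 on the log2 scale. CARS1 (cysteinyl), HARS1 (histidyl) and SARS1 (seryl) gave log2 values of -0.40, -0.40 and -0.24, each with an interval that includes 0.

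In 5 of the 10 genes called in MOLM-13 cells (VARS1, GARS1, FARSA, MARS1 and YARS1) the call was kept under every alternative tried. That call uses the unadjusted p. With no filter on low values the adjusted p of these 5 was 0.0668 (GARS1) to 0.119 (MARS1) in limma, and it was also above 0.05 for MARS1 without DMSO replicate 1, DMSO replicate 3 or FP54 replicate 1 (up to 0.09), for YARS1 without DMSO replicate 3 or FP54 replicate 1 (up to 0.0579) and for FARSA without FP54 replicate 1 (0.0564). FARSB lost its call without any 1 of DMSO replicate 1, DMSO replicate 3, FP54 replicate 1 or FP54 replicate 2 (log2 values -0.86 to -1.10), NARS1 without DMSO replicate 1, DMSO replicate 3 or FP54 replicate 1 (-0.48 to -0.56), IARS1 without FP54 replicate 1 (-0.84), and YARS2 without DMSO replicate 1 (-0.51). With no filter on low values FARSB, IARS1, NARS1 and LARS1 (adjusted p = 0.16, limma) were not called, which took the 9 cytosolic genes to 5.

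The same comparison in NB4 cells gave another picture. Of the 19 cytosolic genes, all of which passed the filter, 5 rose and 2 fell, against 18.6% of the 9853 genes tested that rose and 10.7% that fell. The split moved with the scaling, to 4 higher and 5 lower with median-ratio scaling and 6 higher and 1 lower with quantile normalization. The median log2 fold change was 0.08 for the 19 and 0.07 for all genes tested. Both counts and this median are near those of all genes, so they set no cytosolic response apart. The summed cytosolic level was 811 ± 24.6 RPKM with DMSO and 903 ± 19.0 with FP54, and the most abundant cytosolic member changed from FARSA in all 3 DMSO libraries to AARS1 in all 3 FP54 libraries. The mRNAs encoded by mitochondrial DNA summed to 28700 to 31700 RPKM in the NB4 DMSO libraries and to 19800 to 22000 in the FP54 libraries. In MOLM-13 cells they summed to 11600 to 16200 RPKM with DMSO and to 6570 to 14900 with FP54, lowest in the shallowest library. The part of these sums in the synthetase values of either line was not tested.

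The 5 genes that rose in NB4 cells were WARS1, AARS1, CARS1, SARS1 and MARS1. WARS1 read 28.9, 27.8 and 28.1 RPKM with DMSO and 71.5, 71.0 and 68.2 with FP54. AARS1 read 38.8, 41.2 and 38.8 RPKM with DMSO and 92.6, 101 and 90.5 with FP54. Both more than doubled, with gaps between the treatments far wider than the spread of either group. The log2 fold change was 1.31 for WARS1 (SE 0.07, adjusted p = 5.04e-07, limma) and 1.26 for AARS1 (SE 0.08, adjusted p = 1.22e-06).

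CARS1, the cysteinyl enzyme, went from 7.73, 9.94 and 8.04 RPKM to 13.5, 13.8 and 13.4 in NB4 cells. SARS1 went from 35.8, 43.2 and 39.5 RPKM to 61.7, 62.5 and 61.6. MARS1, a complex member, went from 34.3, 34.0 and 33.8 RPKM to 51.3, 48.5 and 46.0. For all 3 genes each FP54 library exceeded each DMSO library, and the fold changes were 0.67 (SE 0.11, adjusted p = 0.000524), 0.65 (SE 0.09, adjusted p = 0.000156) and 0.51 (SE 0.08, adjusted p = 0.000372). The value of MARS1 is next to the minimum fold and dropped under it without FP54 replicate 1 (0.47) and with median-ratio scaling (0.45). The span of MARS1 also shares bases with 2 genes on the other strand, 13370 with ARHGAP9, which itself went from 4.45 ± 0.456 to 9.02 ± 0.384 RPKM in NB4 cells, and 982 with the stress gene DDIT3, which went from 21.1 ± 8.32 to 75.5 ± 8.19. Since it is not stated whether strand was used in counting, reads of the shared bases cannot be told apart.

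The 2 cytosolic genes that fell in NB4 cells were FARSA and HARS1. FARSA read 98.3, 128 and 110 RPKM with DMSO and 77.6, 77.5 and 71.1 with FP54. HARS1, the histidyl enzyme, read 11.1, 12.3 and 12.5 RPKM and then 8.20, 8.27 and 8.12. Treated libraries lay below the DMSO libraries in both, by -0.56 (SE 0.10, adjusted p = 0.00107) for FARSA and -0.54 (SE 0.09, adjusted p = 0.000619) for HARS1 on the log2 scale. FARSA was the only cytosolic member called lower in both lines. Without DMSO replicate 2, its highest library, the NB4 value was -0.46 and no longer reached the minimum fold, and with quantile normalization it was -0.38. HARS1 was also under the minimum fold with a pseudocount of 1 (-0.49). Of the 10 synthetases called in NB4 cells, WARS1, AARS1, CARS1, SARS1 and YARS2 kept their call under every alternative tried.

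Between these groups lay 12 cytosolic genes that were not called in NB4 cells, several of them held back by the minimum fold and not by p. IARS1 measured 12.8 ± 1.85 RPKM with DMSO and 17.9 ± 0.852 with FP54 (log2 difference 0.48, adjusted p = 0.00473), GARS1 26 ± 0.205 and 35.7 ± 0.699 (0.46, adjusted p = 0.000578) and YARS1 29.1 ± 1.04 and 37.2 ± 2.16 (0.35, adjusted p = 0.00444). On the other side were VARS1 (-0.49, adjusted p = 0.00185), KARS1 (-0.48, adjusted p = 0.000662), RARS1 (-0.45, adjusted p = 0.00616) and FARSB (-0.43, adjusted p = 0.00698). EPRS1, LARS1, QARS1, TARS1 and NARS1 had log2 values from -0.13 to 0.22, with adjusted p between 0.0754 and 0.996. By an adjusted p below 0.05 with no minimum fold, 8 cytosolic genes would be called higher and 6 lower in NB4 cells. The shares of all genes given above hold for the main cutoff only, so these 2 counts cannot be set against them.

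**Figure D2:**
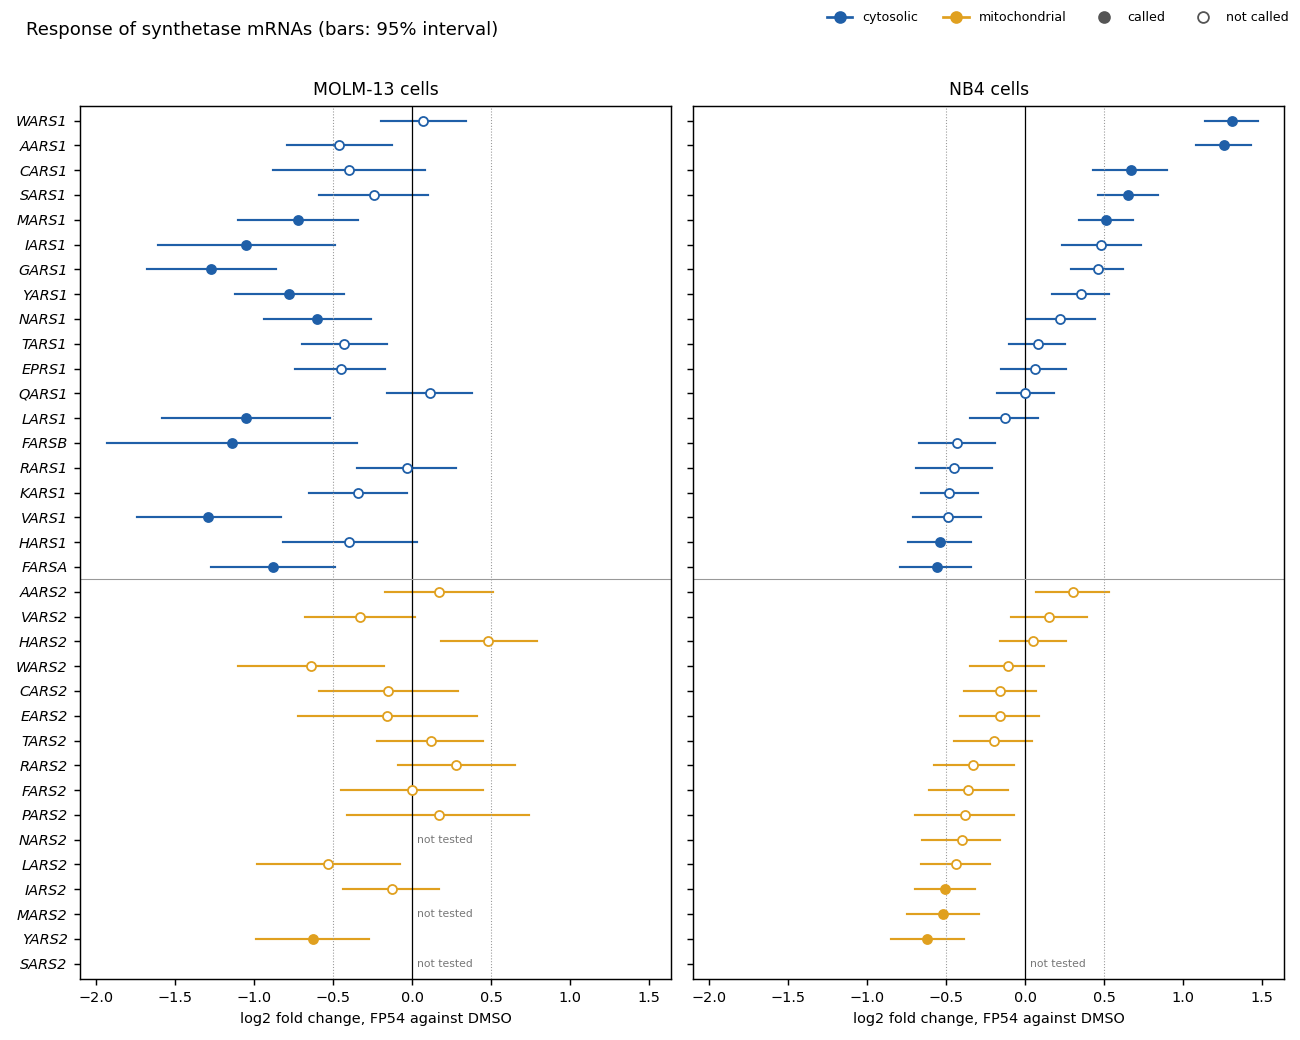
Log2 fold change, FP54 against DMSO, of each synthetase in MOLM-13 cells (left) and NB4 cells (right), with bars for the 95% interval and dotted lines at the minimum fold of 0.5 in either direction. Filled points were called, blue points are cytosolic and orange points mitochondrial; 9 cytosolic genes are filled on the lower side in MOLM-13 cells, and 5 on the higher side in NB4 cells.

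Whether the lines differed in response was tested directly, as the interaction of treatment and cell line in 1 limma model of the 12 libraries. Of the 19 cytosolic genes, 13 had a response that was higher in NB4 than in MOLM-13 cells at an adjusted p below 0.05 and none had a lower one, while 10.5% of the 8849 genes tested were higher in NB4 cells and 3.75% lower. The median difference of the log2 fold changes was 0.82 over the cytosolic genes and 0.08 over all genes tested. None of the 13 mitochondrial genes tested passed this threshold in limma with the settings used here, and their median was -0.01. At an unadjusted p below 0.05, 2 of them were higher in NB4 cells and 3 lower, and 1 cytosolic gene was lower (RARS1, difference -0.41, interval -0.80 to -0.03, adjusted p = 0.15). RARS2, the mitochondrial arginyl enzyme, was next to the threshold (difference -0.61, adjusted p = 0.051) and passed it, on the lower side, under 7 of 11 other settings, limma-voom on recovered reads among them. HARS2 passed under 3 of these, and FARS2 and IARS2 under 1 each.

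The 6 largest differences were those of GARS1, AARS1, IARS1, WARS1, MARS1 and YARS1. In hg38 (GENCODE v44) these genes span chr7:30580533-30634033 (GARS1, plus strand), chr16:70251983-70289707 (AARS1, minus), chr9:92210207-92293854 (IARS1, minus), chr14:100333790-100376805 (WARS1, minus), chr12:57475445-57517569 (MARS1, plus) and chr1:32775237-32818031 (YARS1, minus). GARS1 was highest, at 1.73 (SE 0.20, adjusted p = 5.89e-05): its NB4 libraries read 25.8, 25.9 and 26.2 RPKM with DMSO and 36.4, 35.04 and 35.6 with FP54, whereas the highest MOLM-13 FP54 library read 6.97 RPKM. AARS1 differed by 1.72 (SE 0.17, adjusted p = 9.19e-06), with MOLM-13 values of 26.4, 21.9 and 27.0 RPKM under DMSO and 16.0, 20.1 and 18.5 under FP54. In both genes the treated libraries lay below the DMSO libraries in MOLM-13 cells and above them in NB4 cells.

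IARS1 showed the same crossing, with NB4 values of 13.8, 10.7 and 14.0 RPKM under DMSO and 18.8, 17.5 and 17.3 under FP54 and a difference of 1.53 (SE 0.30, adjusted p = 0.00367). WARS1 was of another kind, since its MOLM-13 values overlapped between DMSO (49.6, 51.3 and 48.0 RPKM) and FP54 (50.3, 52.5 and 53.2), and its difference of 1.24 (SE 0.13, adjusted p = 1.64e-05) came from NB4 cells. MARS1 differed by 1.23 (SE 0.19, adjusted p = 0.000503), with MOLM-13 libraries at 17.6, 14.5 and 19.7 RPKM under DMSO and 8.74, 10.6 and 11.97 under FP54.

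YARS1 completed the 6 with a difference of 1.13 (SE 0.17, adjusted p = 0.000476). Its MOLM-13 libraries read 14.9, 11.1 and 14.8 RPKM with DMSO and 7.53, 7.77 and 8.23 with FP54. Its NB4 libraries read 28.3, 30.2 and 28.6 RPKM and then 38.2, 38.7 and 34.7. The treatments separated in both lines, in opposite directions, although the NB4 change alone was under the minimum fold.

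The other 7 cytosolic genes that differed were as follows: CARS1 by 1.06, LARS1 by 0.91, SARS1 by 0.90, NARS1 by 0.82, VARS1 by 0.80, EPRS1 by 0.51 and TARS1 by 0.50 on the log2 scale, with adjusted p from 0.00407 to 0.0432. Among the complex members these were LARS1 and EPRS1, which with IARS1 and MARS1 made 4 of 7. No difference was called for KARS1, QARS1, RARS1, FARSA, FARSB or HARS1, but the interval for FARSB (-0.19 to 1.60) is wide. For 9 of the 13 genes the call held under all 24 alternatives, while that of EPRS1 and LARS1 was lost under 11 each, that of VARS1 under 10 and that of TARS1 under 4. Of these 13 genes, 10 have a promoter window, and 7 of the 10 hold the letters TGATGNAA shown above; of the 20 other synthetases with a window, 1 does (YARS2), but 14 of these 20 are mitochondrial. Among the 6 other cytosolic genes, all with a window, none holds them. Of ATF4 and 9 genes of its amino acid response, with a larger median difference between the lines (2.64), 8 have a window and 2 of the 8 hold the letters (25%). The 3 that differed without the letters were WARS1, SARS1 and EPRS1. LARS1, VARS1 and YARS1 differed too but have no window. Whether the letters bear on the difference between the lines was not tested.

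**Figure D3:**
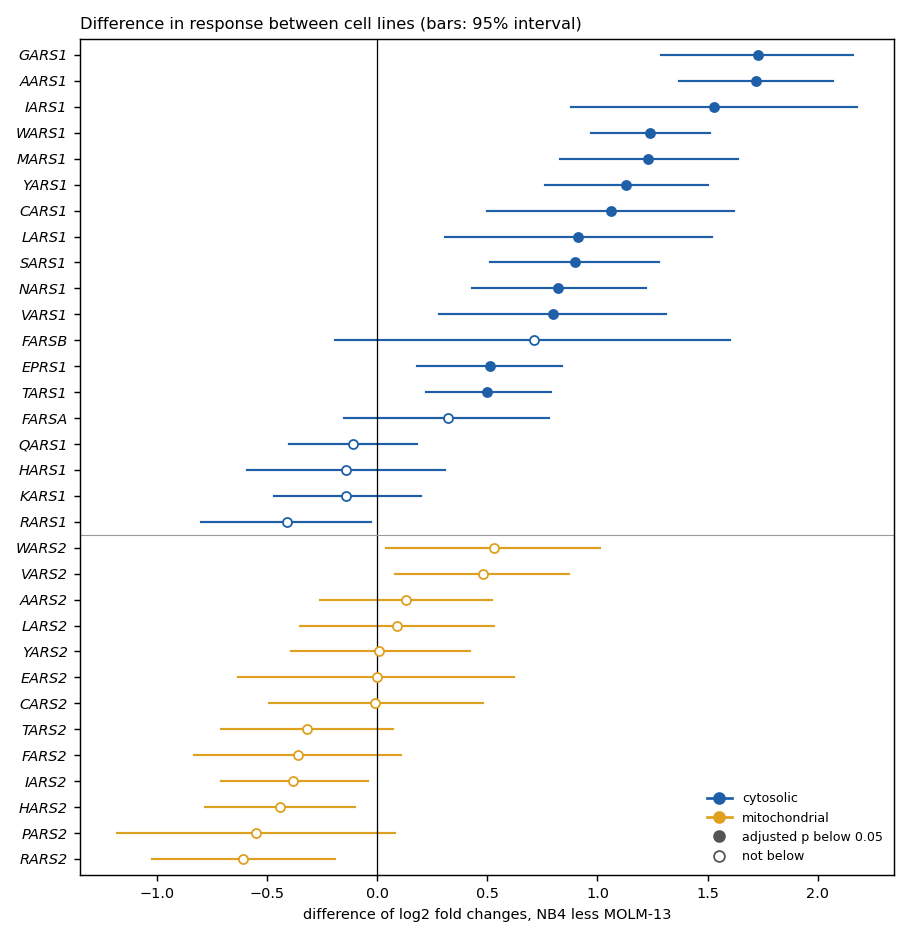
Difference of the log2 fold changes (NB4 less MOLM-13) for the 19 cytosolic (blue) and 13 tested mitochondrial (orange) synthetases, with bars for the 95% interval and filled points where the adjusted p is below 0.05. The 13 filled points are all cytosolic and lie between 0.50 and 1.73, and the mitochondrial points lie between -0.61 and 0.53.

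The mRNAs of the mitochondrial enzymes that were called were all lower. In MOLM-13 cells 1 of the 13 tested fell and none rose (median log2 fold change -0.13), and in NB4 cells 3 of the 15 tested fell and none rose (median -0.33), beside the 9.04% and 10.7% of all genes tested that fell and the 9.3% and 18.6% that rose. The single call in MOLM-13 cells is near the share of all genes. The 3 in NB4 cells became 7 with quantile normalization, 1 with a pseudocount of 1 and 1 without DMSO replicate 1. On the higher side, 1 mitochondrial gene in each line had an unadjusted p below 0.05 in limma, HARS2 in MOLM-13 and AARS2 in NB4 cells, and limma-voom on recovered reads called HARS2. Their summed level was 93.4 ± 10.7 RPKM with DMSO and 90.3 ± 4.98 with FP54 in MOLM-13 cells, where the libraries overlapped, and 147 ± 3.79 and 119 ± 3.51 in NB4 cells, where they did not. SARS2, the seryl enzyme, was under the filter in both lines at 0.41 to 0.91 RPKM in the 12 libraries. Its span is shared over 15360 bases with another annotated gene on the same strand that is listed at 0 in all 12 libraries, so how reads of the shared exons were assigned bears on its level.

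YARS2, the mitochondrial tyrosyl enzyme, was the mitochondrial member called lower in both lines. It read 8.05, 6.06 and 6.42 RPKM with DMSO and 4.56, 3.99 and 4.53 with FP54 in MOLM-13 cells. In NB4 cells it read 13.1, 15.6 and 16.0 RPKM and then 9.80, 10.2 and 8.94. The treatments were apart in both, by -0.63 (SE 0.16, adjusted p = 0.0261) and -0.62 (SE 0.10, adjusted p = 0.000687), and the 2 responses differed by 0.01 with an interval from -0.39 to 0.42. YARS2 overlaps DNM1L on the other strand over 18161 bases, and antisense reads cannot be told apart here.

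In NB4 cells IARS2 and MARS2 fell as well. IARS2 read 45.9, 40.0 and 46.2 RPKM with DMSO and 31.6, 30.7 and 30.3 with FP54 (log2 fold change -0.51, SE 0.08, adjusted p = 0.000655). MARS2, the mitochondrial methionyl enzyme, read 12.7, 10.6 and 13.3 RPKM and then 8.48, 8.06 and 8.72 (-0.52, SE 0.10, adjusted p = 0.00185). No FP54 library reached a DMSO library in either gene, but both values are next to the minimum fold: IARS2 was under it without DMSO replicate 1, DMSO replicate 3 or FP54 replicate 3, and MARS2 without DMSO replicate 1, DMSO replicate 3 or FP54 replicate 2. With quantile normalization IARS2 was at -0.39, and a pseudocount of 1 took both under the minimum fold (-0.48 for MARS2). MARS2 was also the member with the largest ratio of DMSO levels between the lines, at 1.28 ± 0.751 RPKM in MOLM-13 and 12.2 ± 1.39 in NB4 cells, and in MOLM-13 FP54 cells it was at 0.224, 0.113 and 0.687 RPKM, on 2 reads in the shallowest library.

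**Figure D4:**
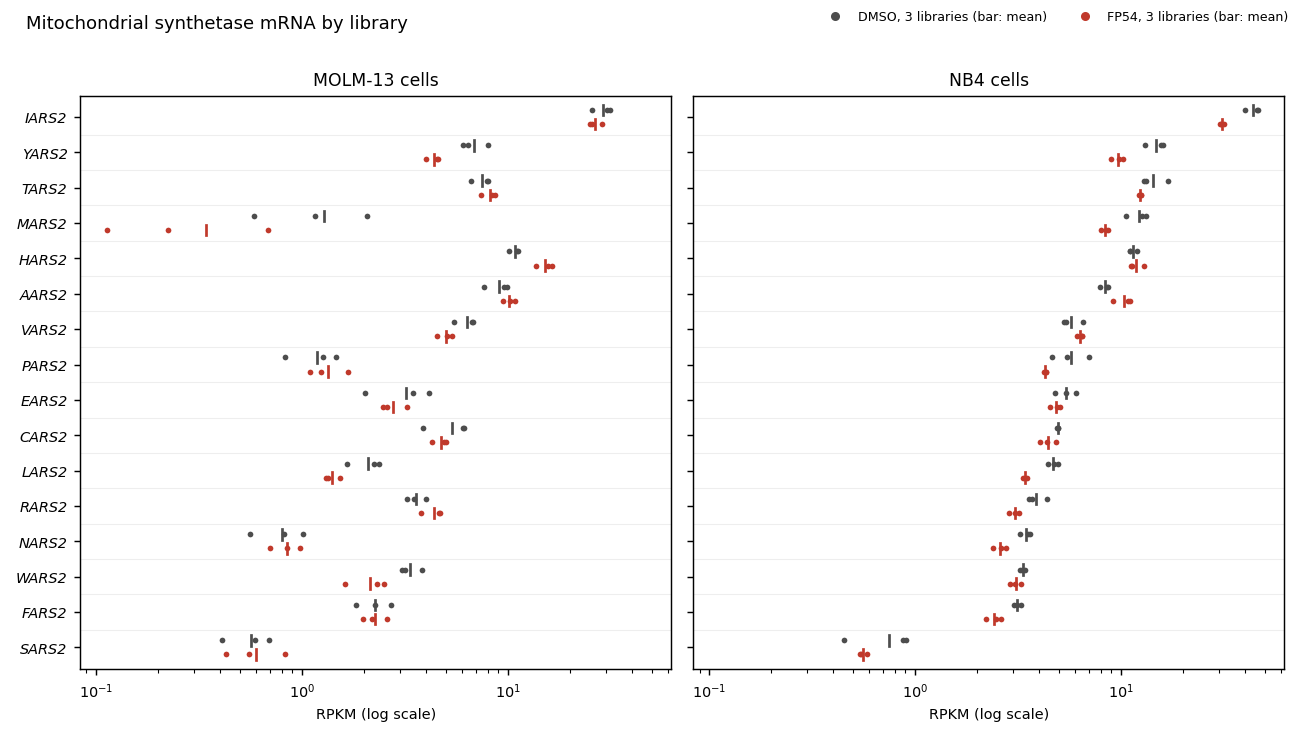
RPKM of the 16 mitochondrial synthetases on a log axis, in MOLM-13 cells (left) and NB4 cells (right), with 1 point for each library and a bar at the mean of 3 libraries, for DMSO (grey) and FP54 (red). IARS2 is the highest in both lines, and MARS2 stands at 1.28 RPKM in MOLM-13 and 12.2 in NB4 DMSO cells.

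The other mitochondrial genes were not called in either line. Those with an adjusted p below 0.05 but a change under the minimum fold were HARS2 (histidyl) in MOLM-13 cells, at 10.9 ± 0.577 RPKM with DMSO and 15.3 ± 1.43 with FP54 (log2 difference 0.48, adjusted p = 0.0368), and AARS2 (alanyl), FARS2 (phenylalanyl), LARS2 (leucyl), NARS2 (asparaginyl), PARS2 (prolyl) and RARS2 (arginyl) in NB4 cells. Of these only AARS2 was on the higher side, at 8.38 ± 0.395 and 10.4 ± 1.09 RPKM (0.30), and the others were at -0.33 to -0.44. CARS2 (cysteinyl), EARS2 (glutamyl), TARS2 (threonyl), VARS2 (valyl) and WARS2 (tryptophanyl) had adjusted p above 0.05 in both lines. NARS2 in MOLM-13 cells, under the filter, measured 0.798 ± 0.227 RPKM with DMSO and 0.844 ± 0.139 with FP54.

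Enzymes for the same amino acid can be set side by side in 13 pairs whose symbols differ only in the last digit. Phenylalanine, glutamate and proline, whose cytosolic and mitochondrial enzymes have other symbols, were left out. The FP54 mean, as a percentage of the DMSO mean, was higher for the cytosolic than for the mitochondrial mRNA in 10 of 13 pairs in NB4 cells and in 2 of 13 in MOLM-13 cells. In NB4 cells the FP54 mean was 239% of the DMSO mean for AARS1 and 124% for AARS2, 248% for WARS1 and 92.5% for WARS2, 159% for CARS1 and 89.7% for CARS2, and 143% for MARS1 and 69.0% for MARS2. The 3 pairs in the other direction were HARS1 (68.3%) and HARS2 (104%), RARS1 (72.9%) and RARS2 (78.9%), and VARS1 (71.1%) and VARS2 (110%). In MOLM-13 cells it was 39.7% for VARS1 and 79.1% for VARS2, 48.8% for IARS1 and 91.1% for IARS2, and 75.3% for HARS1 and 140% for HARS2, and the 2 pairs in the other direction there were WARS1 (105%) and WARS2 (64.0%), and MARS1 (60.1%) and MARS2 (26.6%, under the filter). HARS1 and HARS2 lie head to head on chromosome 5 with spans that share 108 bases. For tyrosine the means were 57.6% for YARS1 and 63.7% for YARS2 in MOLM-13 cells and 128% and 64.8% in NB4 cells. These ratios of means were not tested against each other.

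Of 19 other genes that take part in tRNA charging and delivery, 18 were tested in MOLM-13 cells, where 7 fell and 1 rose, and 16 in NB4 cells, where 3 fell and none rose. Of all genes tested, 9.04% fell and 9.3% rose in MOLM-13 cells, and 10.7% fell and 18.6% rose in NB4 cells. Of the 3 scaffold proteins of the complex, AIMP2 (7.79 ± 3.01 to 3.76 ± 0.792 RPKM, adjusted p = 0.0428) and EEF1E1 (7.52 ± 1.78 to 3.41 ± 1.39, adjusted p = 0.018) fell in MOLM-13 cells, and AIMP1 measured 30.0 ± 0.644 and 27.0 ± 3.48 RPKM. None of the 3 was called in NB4 cells. XPOT, the exporter of tRNA from the nucleus, fell from 45.3 ± 3.65 to 27.5 ± 5.30 RPKM in MOLM-13 cells and measured 51.9 ± 6.29 and 70.5 ± 2.48 in NB4 cells, and its response differed between the lines by 1.18 (adjusted p = 0.000843), as did that of SEPHS2, which makes selenophosphate for selenocysteine tRNA (0.58, adjusted p = 0.0104). GATB, a subunit of the mitochondrial amidotransferase that makes glutaminyl-tRNA, differed in the opposite direction (-0.79, adjusted p = 0.0184), having fallen in NB4 cells.

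TUFM, the mitochondrial elongation factor that delivers charged tRNA, fell in both lines, from 129 ± 22.6 to 67.3 ± 6.96 RPKM in MOLM-13 and from 220 ± 37.6 to 150 ± 5.10 in NB4 cells. EEF1A1, its cytosolic counterpart, was not called in either line. In MOLM-13 cells QRSL1, SEPHS1 and EEF1A2 also fell and SEPSECS, the last enzyme of selenocysteine tRNA synthesis, rose, and in NB4 cells DTD2, which removes wrongly attached amino acids, also fell.

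ATF4 and 9 genes of its amino acid response were set beside the synthetases. Of these 10, 9 rose in NB4 cells, with a median log2 fold change of 2.03, whereas 3 fell and none rose in MOLM-13 cells, with a median of -0.55. Over all genes tested, 18.6% rose in NB4 cells and the median was 0.07, while 9.04% fell and 9.3% rose in MOLM-13 cells and the median was 0. ASNS, asparagine synthetase, went from 8.79 ± 0.609 to 48.9 ± 1.94 RPKM in NB4 cells (log2 fold change 2.46, adjusted p = 3.73e-08) and measured 12.8 ± 2.08 and 8.40 ± 2.30 in MOLM-13 cells. TRIB3, a feedback inhibitor in this response, rose from 16.5 ± 2.04 to 79.6 ± 6.52 RPKM in NB4 and fell from 17 ± 2.89 to 7.76 ± 0.639 in MOLM-13 cells, and PSAT1 and PHGDH, enzymes of serine synthesis, were likewise called higher in NB4 and lower in MOLM-13 cells. SLC7A11, the cystine transporter, rose from 1.38 ± 0.340 to 11.7 ± 1.15 RPKM in NB4 cells, and the mRNA of ATF4, which is controlled mostly at translation, was not called in either line. The ATF4 log2 fold change in NB4 cells was 0.35 (interval 0.06 to 0.64, adjusted p = 0.0421, limma), under the minimum fold. The response differed between the lines for 9 of the 10 genes, by 1.33 (SHMT2) to 3.56 (CHAC1). Each was higher in NB4 cells, as were 10.5% of all genes tested. No difference was called for ATF4 (0.50, adjusted p = 0.18, limma). CHAC1, included in these counts, passed the filter in NB4 cells only through its FP54 libraries. It was at 0.298 ± 0.0708 RPKM with DMSO and 2.16 ± 0.0574 with FP54. The size of its change therefore depends on the 0.1 added before the logarithm.

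**Figure D5:**
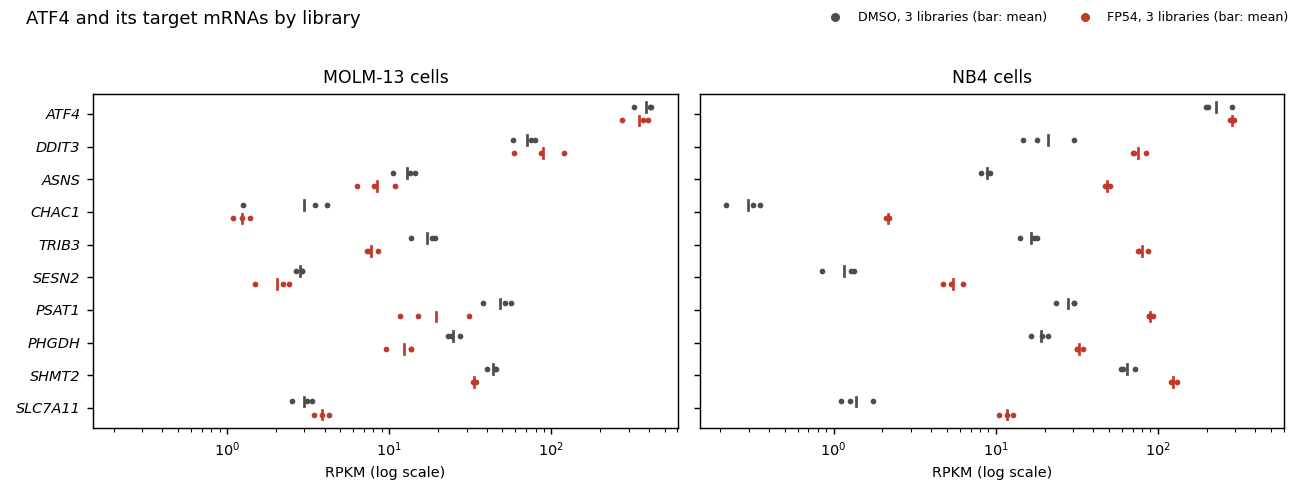
RPKM of ATF4 and 9 genes of its response on a log axis, in MOLM-13 cells (left) and NB4 cells (right), with 1 point for each library and a bar at the mean of 3 libraries, for DMSO (grey) and FP54 (red). In NB4 cells the FP54 points of ASNS, TRIB3 and SLC7A11 lie far to the right of the DMSO points, and in MOLM-13 cells those of TRIB3 and PHGDH lie to the left.

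Of the 4 kinases that phosphorylate eIF2, EIF2AK3 (PERK) rose in NB4 cells, from 1.76 ± 0.213 to 2.74 ± 0.197 RPKM (log2 fold change 0.62, adjusted p = 0.00254), and the mRNA of EIF2AK4 (GCN2), the kinase that senses uncharged tRNA, was not called, at 8.25 ± 1.26 and 6.69 ± 0.0875 RPKM. None of the 4 was called in MOLM-13 cells. Of the 7 myeloid markers, 1 rose and 1 fell in MOLM-13 cells, where 9.3% of all genes tested rose and 9.04% fell, and 2 rose and 1 fell in NB4 cells, where 18.6% rose and 10.7% fell. MPO fell from 2170 ± 119 to 1120 ± 33.6 RPKM in NB4 and from 16.1 ± 2.92 to 3.79 ± 0.741 in MOLM-13 cells, PTPRC (CD45) rose in both, and ANPEP (CD13) rose in NB4 cells from 136 ± 15.7 to 553 ± 19.9 RPKM. CD33, CEBPA, LYZ and SPI1 were not called in either line. Of the 4 genes listed as NB4 markers, CTSG fell in both lines and AZU1 in NB4 cells, where ELANE was under the filter, while RARA was not called in either line. Of the markers of other cell types, CD3D rose in NB4 cells from 6.35 ± 0.528 to 10.3 ± 0.167 RPKM and KRT8 from 1.22 ± 0.294 to 1.86 ± 0.103, and KRT18 fell in MOLM-13 cells from 7.35 ± 1.04 to 4.90 ± 0.803. The part of these shifts in the synthetase values was not tested. The labels do not say whether the 3 libraries of a group came from separate cultures, so the p-values measure the spread between these libraries, which may be technical.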

How the data were processed

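The 12 RNA-seq libraries of both cell lines were used, out of 22 samples (FP54 at 2 μM, 48 hours). The other 10 samples, m6A-seq and polysome libraries, were not analysed here. According to the authors' methods, poly(A) RNA was selected, libraries were made with a stranded kit, and reads were trimmed (Cutadapt 4.8), deduplicated, aligned to hg38 (STAR 2.7.11b) and counted on protein-coding GENCODE genes (featureCounts 2.0.3). The authors deposited RPKM values for 20411 genes. The lengths and totals behind them are not stated, nor is the strand setting of the counting. RPKM times merged exon lengths (GENCODE v44, hg38) gave whole read numbers, within 0.02, for 98.3% to 99.0% of low values, which gave each library's depth.

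Values were read in Python 3.11.15 (numpy 2.4.6, pandas 2.3.3) and drawn with matplotlib 3.10.9. In R 4.3.3, log2(RPKM + 0.1) was fitted with limma 3.58.1 (eBayes with a trend) in each line, after genes averaging under 1 RPKM were left out. Calls needed p below 0.01 and a change of 0.5 or more on the log2 scale, up or down. The difference between lines was the interaction over 12 libraries, among genes that entered both fits, with calls where the adjusted p was below 0.05. Adjustment followed Benjamini and Hochberg and ran over all genes tested. An exact permutation test of 3 against 3 libraries cannot give a p under 0.1, so none was used. The script was tested on simulated data.

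All 35 genes are named. Single-library values are given for the 5 called genes with the largest increase and the 5 with the largest decrease in each line, and for the 6 largest differences between lines. A few genes of the lists are not reported here. Members and lists were chosen with earlier results of these data known, and the lists were written from general knowledge. Alternatives covered the pseudocount, the filter, the scaling, the variance model, the cutoff, a replicate block and leaving out each library. A limma-voom fit of the recovered reads and the subtraction of the olfactory receptor level were added after the data were seen. Promoters come from RefSeq (GRCh38.p14).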

Additional observations from a re-analysis of the deposited data

Results flagged for a closer look

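The response to FP54 differed between NB4 and MOLM-13 cells, by the interaction test in limma at an adjusted p below 0.05, for 13 cytosolic synthetases, all on the higher side in NB4 cells, beside 10.5% of all genes tested that were higher and 3.75% that were lower. The differences of the log2 fold changes, NB4 less MOLM-13, were 1.73 for GARS1, 1.72 for AARS1, 1.53 for IARS1, 1.24 for WARS1, 1.23 for MARS1, 1.13 for YARS1, 1.06 for CARS1, 0.91 for LARS1, 0.90 for SARS1, 0.82 for NARS1, 0.80 for VARS1, 0.51 for EPRS1 and 0.50 for TARS1. The calls of EPRS1, LARS1, VARS1 and TARS1 were lost under 11, 11, 10 and 4 of 24 alternatives, and the replicate block took away those of EPRS1, LARS1 and TARS1 (adjusted p 0.0713 to 0.105, limma). Of the 13 genes, 10 had a negative log2 fold change in MOLM-13 and a positive one in NB4 cells, LARS1 and VARS1 were negative in both, and WARS1 was positive in both. Several of these single values were not told from 0, such as those of LARS1, EPRS1 and TARS1 in NB4 cells.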

How the results depend on the processing

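Of 691 repeats of the 33 called values under other settings, 627 stayed on their side of the threshold, 64 lost the call and 0 changed direction. In MOLM-13 cells 10 synthetases were called, and 6 with no filter on low values, of which 5 were cytosolic genes called lower (9 with the filter). Mitochondrial genes called lower numbered 1, and 2 with median-ratio scaling, quantile normalization or eBayes without a trend. Mitochondrial genes called higher numbered 0, and 1 with quantile normalization, limma-voom on recovered reads or an adjusted p below 0.05 with no minimum fold. Leaving out 1 library gave 7 to 12 calls, 0 to 2 mitochondrial genes lower and 0 to 1 higher. In NB4 cells 10 were called. With an adjusted p below 0.05 and no minimum fold it was 23 (8 cytosolic and 1 mitochondrial higher, 6 cytosolic and 8 mitochondrial lower). The share of all genes passing this looser cutoff is not given here, so the 23 cannot be set against it. Cytosolic genes called lower numbered 2, and 1 with a pseudocount of 1, 5 with median-ratio scaling, 1 with quantile normalization, and 2 to 4 without 1 library. Mitochondrial genes called lower numbered 3, and 1 with a pseudocount of 1, 7 with quantile normalization, and 1 to 3 without 1 library. The median log2 fold change of all genes in NB4 cells was 0.07, 0.01 with median-ratio scaling and -0.03 with quantile normalization. The cause of these changes was not tested. Genes with a different response in the 2 lines numbered 13, and 9 to 16 under the alternatives (9 to 14 without 1 library). The 16, with quantile normalization, were 13 cytosolic genes higher and 3 mitochondrial genes lower in NB4 cells (FARS2, HARS2 and RARS2), and median-ratio scaling gave 10 and 3 (HARS2, IARS2 and RARS2). Libraries with the same replicate number did not deviate together (correlations -0.26, -0.13 and -0.06 in MOLM-13 and -0.14, 0.07 and 0.12 in NB4 cells). In MOLM-13 cells each DMSO library correlated best with an FP54 library of another number (0.59, 0.49 and 0.47). In NB4 cells only DMSO replicate 3 correlated best with its own number. With a replicate block, 10 genes were called in each line and 10 differed between the lines. Depth limits MARS2, SARS2 and PARS2 in MOLM-13 cells, with 2, 10 and 15 reads in the shallowest library.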
